A study of Danio rerio with 20 samples.

Results

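Catalase (cat) and the copper-zinc superoxide dismutase (sod1) were followed as antioxidant enzymes in liver tumors and normal livers of zebrafish (Danio rerio). Members were the probes whose single gene symbol in the platform annotation was cat or began with sod1, sod2, prdx or gpx. This gave 2 genes of the 5356 named ones, each with 1 probe among 16512 (cat on probe 5270127, sod1 on probe 5270129). The symbols sod2, prdx and gpx matched 0 probes, so the mitochondrial superoxide dismutase, the peroxiredoxins and the glutathione peroxidases were not analysed here. The 10 tumor arrays carried liver tumors that the labels describe as induced by carcinogens, and the 10 normal arrays carried normal liver. RNA of each sample was labelled with Cy5 and hybridised beside Cy3-labelled normal liver RNA, the common reference. The labels name neither the carcinogen nor the strain, age or sex of the fish. They also do not say whether arrays stand for separate fish, so the p-values below rest on a spread that may be technical in part.

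Superoxide is a by-product of respiration and of oxidases. Superoxide dismutases turn it into hydrogen peroxide, sod1 mainly in the cytosol, and catalase splits hydrogen peroxide into water and oxygen, mainly in peroxisomes. The liver is known as one of the tissues richest in catalase, since hepatocytes hold many peroxisomes that burn fatty acids and release hydrogen peroxide. Glutathione peroxidases and peroxiredoxins remove peroxides by other routes, with electrons that come from NADPH through glutathione or thioredoxin.

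All values are log2 ratios to the reference, likely liver sample over reference. No label states the direction, and all signs given here would turn with it. The array medians lay between -0.141 and 0.205 for normal liver and between -0.139 and 0.0341 for the tumors. The share of dim spots, taken from the values because the table holds no brightness, was 2.55% to 7.87% on normal arrays (mean 5.86%) and 0.618% to 7.16% on tumor arrays (mean 1.97%). It counts values that match ratios of small whole numbers, as set out below, and was not checked against brightness. With a shifted constant at most 0.43% of values matched on any array, so the lowest tumor shares lay near that level.

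The first comparison asked how the enzymes of the tumors differ from those of normal liver. Cat was lower in the tumors. Its log2 ratio ran from -0.06 through a median of 0.56 to 1.09 on the normal arrays, and from -4.19 through a median of -2.31 to -0.47 on the tumor arrays. The groups did not overlap, each of the 10 tumor values being below the lowest normal value, as was so for 0.380% of the 15780 features. The lowest normal value and the highest tumor value were 0.41 apart. The tumor mean of -2.43 ± 1.26 stood against a normal mean of 0.54 ± 0.36 (SD, n = 10 each). The difference was -2.97 ± 0.39 (SE), which is 7.82-fold with a 95% interval of 4.49 to 13.6 (adjusted p = 8.52e-05 with limma). Of all features 10.8% passed the adjusted threshold of 0.05 in either direction, with 4.94% lower and 5.91% higher in tumors. Among named genes, cat had the 9th lowest difference. In bulk tissue, fewer cells of a type and less RNA per cell cannot be told apart. With the share of dim spots as a covariate, cat missed the threshold (-2.25 ± 0.52, adjusted p = 0.0658 with limma).

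**Figure D1:**
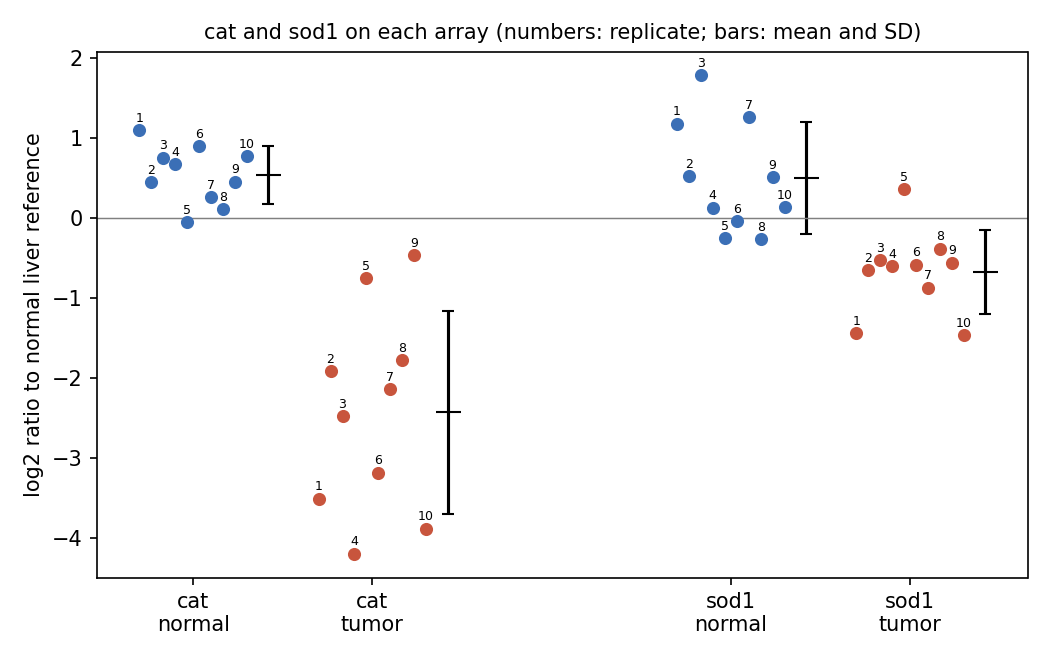
Log2 ratio to the normal liver reference of cat and sod1 on each of the 10 normal (blue) and 10 tumor (red) arrays, numbered by replicate, with mean and SD as black bars. All tumor values of cat lie below the normal values, at -4.19 to -0.47, while tumor replicate 5 lies at 0.35 for sod1, inside the range of the normal arrays.

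The tumors differed widely in cat. Tumor replicate 4 was lowest at -4.19 (18.3-fold below the reference), followed by tumor replicates 10 and 1 at -3.88 and -3.51. Tumor replicates 5 and 9 were highest, at -0.76 and -0.47, and 6 of the 10 tumors lay below a log2 ratio of -2. The range was 3.72 log2 units over the tumors and 1.15 over the normal livers. Without tumor replicates 5 and 9, an alternative chosen after seeing the data, the difference was -3.42. Leaving out the tumors with the highest cat had to widen it, so that fit gives no support to the difference.

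Sod1 was lower in the tumors as well. Its log2 ratio ran from -0.27 through a median of 0.32 to 1.78 on the normal arrays, and from -1.46 through a median of -0.60 to 0.35 on the tumor arrays. The groups overlapped through 1 array, tumor replicate 5, and the other 9 tumors lay below all normal arrays. The share of all features with such a separation was not counted. Tumor replicates 10 and 1 were lowest at -1.46 and -1.44, and normal replicates 3, 7 and 1 were highest at 1.78, 1.25 and 1.18. The difference between the means was -1.17 ± 0.26 (SE, n = 10 each), or 2.25-fold with a 95% interval of 1.54 to 3.27 (adjusted p = 0.00617 with limma). Among named genes it had the 115th lowest difference. With the share of dim spots as a covariate sod1 stood at -0.91 ± 0.38 and missed the threshold (adjusted p = 0.372 with limma), and with array weights its difference was -0.67 (adjusted p = 0.0268).

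The log2 difference of the cat probe exceeded that of the sod1 probe on the same arrays. Each gene rests on 1 probe, and whether the 2 probes respond alike to RNA was not tested. Cat minus sod1 was -1.76 ± 1.004 on tumor and 0.04 ± 0.65 on normal arrays (SD, n = 10 each), a difference of -1.80 (two-sided permutation p = 0.0003, 100000 resamples, a comparison chosen after the values were seen). On 9 of 10 tumor arrays it lay below all normal arrays, a count not taken for other pairs of genes. Tumor replicate 9 was the exception, with cat at -0.47 and sod1 at -0.56.

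**Figure D2:**
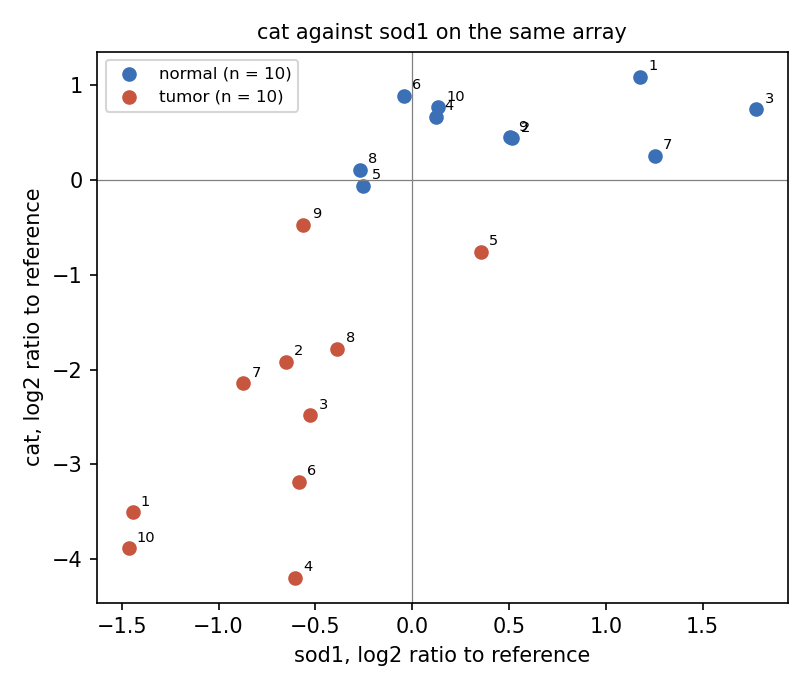
Cat (vertical axis) against sod1 (horizontal axis) on the same array, both as log2 ratio to the reference, for 10 normal (blue) and 10 tumor (red) arrays numbered by replicate. Tumor replicates 1 and 10 are low in both genes, and tumor replicate 4 has the lowest cat, -4.19, with a sod1 of -0.61.

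Both enzymes were set beside the hepatocyte markers and the share of dim spots within each group, in 10 relations in all. Over the 10 tumors, cat correlated with the mean log2 ratio of the 6 measured hepatocyte markers (r = 0.87, permutation p = 0.00124, adjusted p = 0.0124; rho = 0.82, permutation p = 0.0058, adjusted p = 0.058; r = 0.73 without the 2 tumors farthest from the median marker level). The rank correlation thus missed the adjusted threshold. Tumor replicate 4 had the lowest marker mean, -3.57, and tumor replicate 9 the highest, -1.04. Over the 10 normal livers r was -0.02 (permutation p = 0.95). For cat and sod1 over the tumors r was 0.65 (permutation p = 0.0373, adjusted p = 0.186; rho = 0.64, permutation p = 0.0561, adjusted p = 0.281). Without the 2 tumors farthest in sod1 r was 0.37. Leaving them out also narrows the range of sod1, so this cannot decide whether the relation rests on them. The other 7 relations had adjusted p of 0.236 to 0.754 for r.

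The hepatocyte markers themselves differed between the groups. Their mean was -2.41 ± 0.79 on tumor and -0.05 ± 0.27 on normal arrays (SD, n = 10 each), with tumors at -3.57 to -1.04 and normal livers at -0.39 to 0.31. Of the 6 markers 4 passed and were lower in tumors (fabp10a, apoa1a, rbp4 and cp). Tfa at -0.63 and c3a.1 at -0.44 did not pass (adjusted p = 0.244 and 0.641 with limma). Cp is also among the genes closest to cat that are named below. Among markers of other cells, 1 of 6 bile duct genes was higher (mean level of the list -0.20 to 1.81 in normal liver and 0.19 to 1.81 in tumors) and 1 of 6 erythrocyte genes lower (0.07 to 0.67 and -1.10 to 0.95). Of 8 ovary genes 2 were higher and 1 lower (-2.74 to 1.53 and -1.93 to 1.13). Limma called 0 of 9 leukocyte genes (1 at an unadjusted p under 0.05; 0.01 to 2.00 and 0.09 to 2.98) and 0 of 4 exocrine pancreas genes (3 at an unadjusted p under 0.05; -3.28 to 2.71 and -4.91 to 0.90). The part of these cells in the differences of cat and sod1 was not tested.

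The share of dim spots also moved with the groups. With it as a covariate 55 of the 15780 features passed, against 1712 without it. Within groups, cat and the share of dim spots correlated at r = 0.40 over the tumors (permutation p = 0.275, adjusted p = 0.395). Over the normal livers r was 0.61 (permutation p = 0.0707, adjusted p = 0.236). Without the 2 arrays farthest in dim share, r for cat was 0.19 over the tumors and 0.03 over the normal livers. For sod1 r was -0.20 over the tumors (permutation p = 0.481) and 0.52 over the normal livers (permutation p = 0.111). Without the 2 farthest arrays, r for sod1 was -0.55 over the tumors and 0.12 over the normal livers. Leaving these arrays out also narrows the range of the share. The fits without them thus cannot decide whether a relation of cat or sod1 rests on them. Tumor replicate 9, the tumor with the highest share of dim spots (7.16%), also had the highest cat. Tumor replicate 5, second in cat, had a share of 0.842%.

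**Figure D3:**
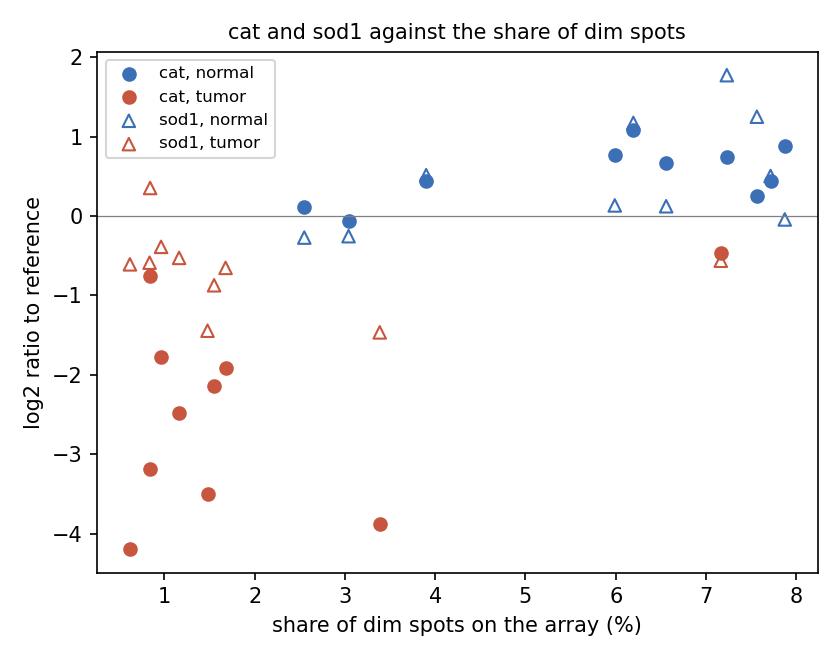
Log2 ratio to the reference of cat (filled circles) and sod1 (open triangles) against the share of dim spots on the array in percent, for normal (blue) and tumor (red) arrays. 8 tumors lie at a share under 2% and 2 at 3.39% and 7.16%, while the normal arrays run from 2.55% to 7.87%.

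Genes of 9 related lists were read beside the members, with neither cat nor sod1 in them. The lists were chosen with earlier results of these data known and give no independent support. Of their 60 measured genes, 8 were lower and 3 higher in tumors (18.3% passed, against 10.8% of all features), with a median difference of -0.07 against -0.01 over all features. With the share of dim spots as a covariate, none of these 11 passed (adjusted p = 0.089 to 0.679 with limma), and all kept their sign. Both the differences and their SEs moved. Dio2 stood at -2.07 ± 0.56 with the covariate and -2.38 ± 0.39 without it, scp2a at -1.80 ± 0.45 and -2.19 ± 0.32, and gclm at 0.53 ± 0.42 and 0.99 ± 0.30.

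Catalase shares the peroxisome with enzymes of fatty acid oxidation. Of 12 measured peroxisome genes 2 passed, both lower in tumors, and the median difference was -0.26. Scp2a, which encodes a peroxisomal thiolase and sterol carrier, differed by -2.19 ± 0.32 (SE, adjusted p = 0.000195). All 10 tumors lay below all normal arrays, as for 0.380% of all features, but narrowly (highest tumor -0.73, lowest normal -0.70). Hsd17b4, the bifunctional enzyme of peroxisomal beta-oxidation, differed by -1.20 ± 0.23, again without overlap but narrowly (highest tumor 0.28, lowest normal 0.38). The peroxins pex3, pex14, pex19 and pex26, which build the organelle, did not pass and stood at -0.80, -0.13, -0.15 and 0.07. Pex3 missed narrowly (SE 0.28, adjusted p = 0.0665 with limma), as did phyh (-0.97, adjusted p = 0.0674) and ech1 (-0.71, adjusted p = 0.0734). Of the 12 genes 5 had an unadjusted p under 0.05, and differences in the list ran from -2.19 to 0.28. With arrays scaled or quantile-normalized 5 peroxisome genes passed as lower, and 4 did with array weights or without tumor replicate 9.

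Few genes of the electron supply to the peroxidases were measured. Of 8 genes of glutathione synthesis and recycling 2 passed, both higher. They were gclm, the modifier subunit of glutamate-cysteine ligase (0.99 ± 0.30, adjusted p = 0.0377), and slc3a2b, the heavy chain of amino acid exchangers (0.90 ± 0.23, adjusted p = 0.0163). Gclc, the catalytic subunit of the same ligase, stood at 0.00 ± 0.19 (adjusted p = 0.991). Slc3a2a, the other slc3a2 gene of the list, stood at -0.09 ± 0.22 (adjusted p = 0.832 with limma). Chac1 had the largest difference of the list, -1.22 ± 0.42, and did not pass (adjusted p = 0.0644 with limma). With arrays scaled, quantile-normalized or weighted, 1 gene of the list passed as lower. The call of gclm was lost in 13 of 20 fits that each left out 1 array (highest adjusted p = 0.0718). In the list of thioredoxin and methionine sulfoxide reduction limma called 0 of 6, as did the rank-sum test, and 1 had an unadjusted p under 0.05. That gene was txnl4a (0.50 ± 0.19, adjusted p = 0.0873 with limma, and 0.0437 without normal replicate 8). Txnl4a was listed by its name and encodes a thioredoxin-like protein of the spliceosome, not an enzyme of the electron supply. In the NADPH supply both tests called 0 of 3, and 1 had an unadjusted p under 0.05, the mitochondrial transhydrogenase nnt (0.37 ± 0.15, adjusted p = 0.124).

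Among detoxifying enzymes, nqo1, a quinone reductase and a target of the oxidant-responsive factor Nrf2, was lower by 3.24-fold (-1.70 ± 0.26, adjusted p = 0.000378), and its 2 probes gave -1.79 and -1.60. It was the 1 of 3 measured genes of the Nrf2-Keap1 list that passed, next to cul3a at 0.36 and maff at 0.32. This 1 gene does not stand for the targets of Nrf2, whose activity was not tested. Of 5 glutathione transferase genes 1 passed, gstt1b (-1.45 ± 0.28, adjusted p = 0.00192). The other 4 lay between -0.46 (gstp1.2) and 0.29 (mgst3b).

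Of 11 genes of selenoproteins and selenocysteine insertion 2 passed, both lower. Dio2, a deiodinase that activates thyroid hormone, differed by -2.38 ± 0.39 (adjusted p = 0.000578), and selenoo1, a mitochondrial selenoprotein, by -0.60 ± 0.15 (adjusted p = 0.0121). The plasma selenium carriers selenop and selenop2 did not pass, at -0.72 ± 0.38 and -1.11 ± 0.47. In copper, zinc and iron handling 2 of 9 passed, with cp, the plasma ferroxidase ceruloplasmin, at -2.29 ± 0.32 and fth1a, the ferritin heavy chain, at 0.81 ± 0.24 (adjusted p = 0.0336). The call of fth1a was lost in 11 of 20 fits that each left out 1 array (highest adjusted p = 0.0636). It was also lost with the rank-sum test (adjusted p = 0.0523). Of 3 genes of superoxide and peroxide producers 1 passed, mao, a monoamine oxidase that releases hydrogen peroxide (-1.17 ± 0.20, adjusted p = 0.000809).

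**Figure D4:**
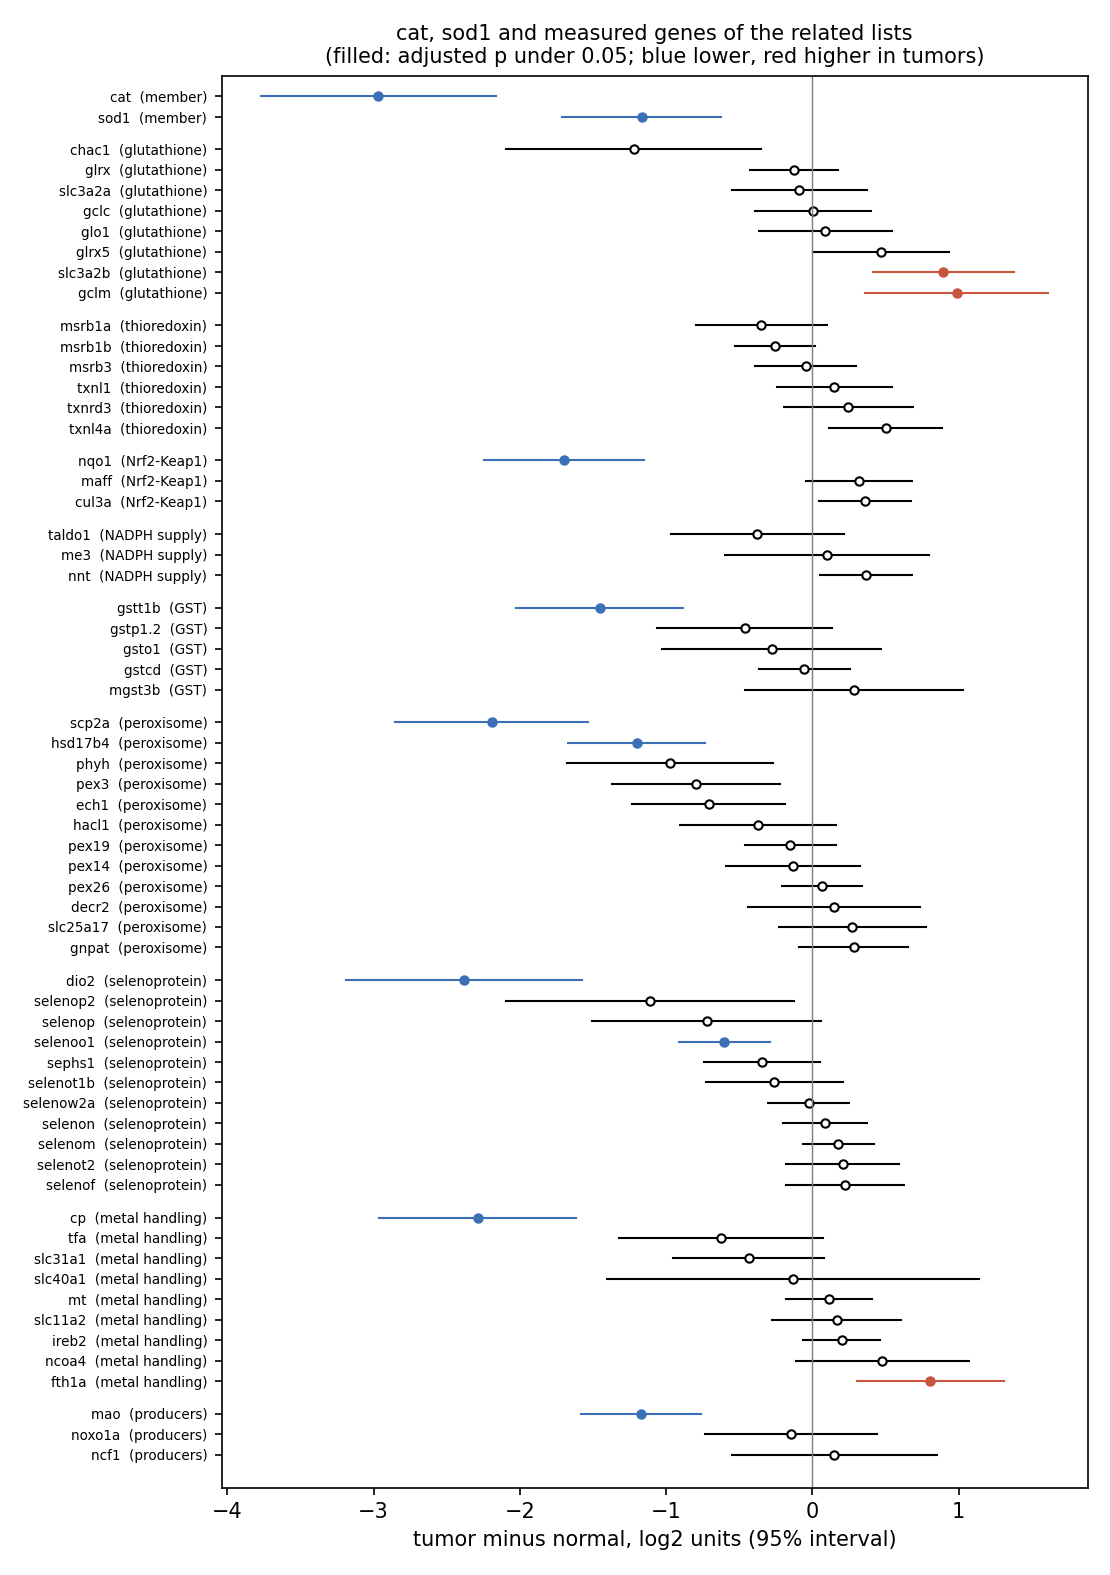
Difference between tumor and normal arrays in log2 units with its 95% interval for cat, sod1 and the 60 measured genes of the related lists, sorted within each list. Filled points passed the adjusted threshold (blue lower, red higher in tumors). The interval of cat, -3.77 to -2.17, lies below that of sod1, -1.71 to -0.62.

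The named genes closest to each member over the 20 arrays were taken by the root mean square difference of log2 ratios, each gene relative to its own normal mean. Closest to cat were the organic cation transporter gene slc22a2 (0.63), the gluconeogenic fbp1b (0.66), si:ch73-15n24.1 (0.68), the acyl-CoA synthetase gene slc27a2a (0.70) and cp (0.71). Their differences between tumor and normal ran from -3.14 (fbp1b) to -2.29 (cp). With the share of dim spots as a covariate, slc22a2 and slc27a2a passed (both adjusted p = 0.0258). Closest to sod1 were spon1a (0.30), tegt (0.36), fgf8a (0.40), hsd17b4 (0.41) and gdf7 (0.42), with differences from -1.20 (hsd17b4) to -0.83 (tegt). The 2 probes of gdf7 disagreed, at -1.79 and -0.10. The arrays share the reference, and the difference between the groups enters this measure.

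The second comparison set normal liver against the reference, which was normal liver RNA too. The mean of cat over the 10 normal arrays was 0.54 (9 of 10 above 0), and that of sod1 was 0.49 (7 of 10 above 0). In the fit with both groups the SE pools the spread of normal and tumor arrays, at 0.27 for cat (adjusted p = 0.16 with limma) and 0.18 for sod1 (adjusted p = 0.0551). Limma called 0 of the 2 genes there, 1 had an unadjusted p under 0.05 (sod1, 0.0143), and 25.0% of all features passed. With the 10 normal arrays fitted alone, an alternative chosen after seeing the data, cat passed (SE 0.12, adjusted p = 0.00693 with limma) and sod1 did not (SE 0.20, adjusted p = 0.1). Of all features 21.2% passed in that fit. The result for cat thus depends on whether the wider spread of the tumors enters its SE. No dye was swapped, so dye effects cannot be told apart from these differences.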

How the data were processed

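RNA of 10 liver tumors and 10 normal livers was measured on 2-colour arrays, grouped by the letter T or C in the titles. The deposited values are log2 ratios, a base read from the values; what the authors did for background and normalization is not given in the sources used here. Probes of 1 symbol were averaged, leaving 15780 features. Groups were compared with limma 3.58.1 (lmFit, eBayes; R 4.3.3) on 20 arrays, with Benjamini-Hochberg adjustment over all features. The fit was tested on simulated data with the same spread in both groups and no effect of dim spots. That test thus does not cover the wider spread of cat in the tumors or the unequal share of dim spots. A value counted as dim when it matched, with a tolerance of 0.00011, the log2 of a ratio between whole numbers of at most 10, once the array's own constant was removed. Permutation tests used scipy 1.17.1 in Python 3.11.15. The number of arrays limits the precision. Members and lists were chosen with earlier results of these data known. Text names every member, up to 4 passing genes of each list (or that with the smallest p), and the 5 closest patterns; other list genes were chosen after their values were seen. Alternatives covered normalization, probes, variance, weights, covariate, block and arrays left out.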

Additional observations from a re-analysis of the deposited data

How the results depend on the processing

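Over the 33 alternatives run, cat and sod1 were both called lower in tumors in all but 1, the share of dim spots as a covariate, where 0 were called. The sign held in every alternative. The cause was not tested. The difference of cat ran from -3.42 to -2.25 and that of sod1 from -1.31 to -0.67, the latter with array weights (adjusted p = 0.0268). The ends at -3.42 and -1.31 came from the fit without tumor replicates 5 and 9, the tumors with the highest cat, chosen after seeing the data. Leaving out 1 array at a time, 2 members stayed called throughout, with cat at -3.19 to -2.77 and sod1 at -1.28 to -1.02. Against the reference, 1 member (sod1) rather than 0 was called when arrays were centred on their median, with trend and robust eBayes, over named features only, and without tumor replicates 1 and 10, normal replicate 8 and tumor replicate 10, or tumor replicates 5 and 9; leaving out 1 array gave 0 to 1. Over all 31 alternatives of this comparison sod1 had adjusted p = 0.0239 to 0.335 with limma, the highest with array weights, where it was not called. With the normal arrays fitted alone 1 member was called too, cat, whose SE was then free of the tumors' spread. With the replicate number as a block, cat had adjusted p = 0.00211 and sod1 adjusted p = 0.0274. Same-numbered arrays correlated at -0.15 to 0.12 after group means were removed, and 1 of 10 matched best with its own number, so the numbers were not taken to pair the samples. With the block, selenoo1, fth1a and fgf8a were not called (adjusted p = 0.0531, 0.0821 and 0.0508), which left 1 rather than 2 selenoprotein genes lower. Of the 15780 features 1712 passed, against 1253 with the block, 2732 with arrays centred and scaled and 2622 with quantile normalization. With array weights 3391 passed, and with the share of dim spots as a covariate 55. When only the 5356 named features were fitted, 762 of those 5356 passed, a count out of fewer features. The members, the genes picked from each list by the stated rule and the closest patterns came to 23 genes, of which 21 passed, against 10.8% of all features. Most were picked for passing or for their closeness to the members, so that count was largely fixed by the choice and gives no support. Of these 21 genes, 2 also passed with the share of dim spots as a covariate, and 21 kept their sign.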
